A study of Rattus norvegicus with 12 samples.

Results

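Cultured joint chondrocytes from spontaneously hypertensive rats (SHR) were compared between 3 months and 5 days of age. The comparison used all 6 SHR libraries of the 12 in the series, 3 at each age, chosen by strain and age as the labels give them. The other 6 libraries were made at the same ages from Wistar Kyoto (WKY) rats, a control strain with normal blood pressure. They were fitted in the same model as the SHR libraries. All 12 were RNA-seq libraries of primary monolayer cultures grown out of collagenase-treated knee cartilage, in medium with fetal bovine serum, and no group carried a transgene or drug treatment. The collagenase was used at 0.5 or 3 mg/mL, and the labels do not tie either concentration to a sample. The labels give neither the sex of the rats nor whether the replicates were separate animals, so p-values here measure the spread between these libraries, which may be technical. Replicates 1 and 2 of each group belonged to batch 1 and replicate 3 to batch 2. Expression was read from estimated counts, deposited for 16770 genes, of which 13397 passed a low-count filter and were tested.

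Articular chondrocytes build the smooth cartilage of joints from type II, IX and XI collagen and aggrecan, under the transcription factor SOX9. In monolayer culture, chondrocytes are known to lose these products while type I collagen rises. After birth, rodent tissues switch off a network of imprinted genes, which are transcribed from only the maternal or the paternal copy. That network includes the growth factor Igf2 and the regulators Plagl1, Peg3 and Mest, and its decline accompanies the slowing of body growth.

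The 6 SHR libraries held 18013613 to 20358123 counts each. Replicates 1 and 2 of the 5-day group were far closer to each other than any other pair, with a chi-square of 4.21 per degree of freedom against 38.8 to 327 for the other 11 pairs of replicates. They differed by more than counting error, which does not show whether they came from separate cultures. They were kept as 2 libraries, and the effect of averaging them is given with the results. The batch 2 library stood apart within each age. The summed cartilage markers reached 30900 CPM (counts scaled to a common library size, here by the total count) in the batch 2 library at 5 days, against 2200 and 2270 in batch 1, and 2850 at 3 months, against 550 and 1740. The fibroblast markers, led by type I collagen, summed to 43100 to 66800 CPM per total count at 5 days and 52300 to 65300 at 3 months. Of 11 macrophage markers, 4 were tested, and their list summed to 1.89, 2.21 and 4.70 CPM at 5 days and 5.53, 1.58 and 23.6 at 3 months, with C1qa at 0 in 4 of the 6 libraries. The endothelial list stayed between 13.5 and 28.9 CPM in all 6, and the lymphocyte list did not exceed 1.41. The pericyte and smooth muscle list was higher at 5 days, at 4710 to 5230 CPM, than at 3 months, at 1770 to 3530. In bulk cultures, fewer cells of a type and less RNA per cell cannot be told apart.

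With the batch as a term, 276 of the 13397 genes tested changed with age in SHR (2.06%; edgeR quasi-likelihood test, Benjamini-Hochberg adjusted p under 0.05). The model was fitted to all 12 libraries, so the WKY libraries also entered the estimates of spread and batch behind these p-values. At 3 months, 117 were higher (0.873% of the genes tested) and 159 were lower (1.19%). All 276 had the same direction in both batches, but they were called on these same libraries, so this is no replication. Among them, 137 of the lower and 84 of the higher genes had a log2 difference beyond 1 in size. The 3 libraries of the 2 ages did not overlap for 245 of the 276, and for 2252 of all genes tested (16.8%). The number of calls depended on which libraries were in the fit: it was 29, 27 or 41 without replicate 1, 2 or 3 of the 5-day group, 41, 478 or 82 without replicate 1, 2 or 3 of the 3-month group, and 26 with the close 5-day pair averaged. With only the 6 SHR libraries in the fit 100 genes were called, of which 81 were among the 276. Without the batch term 18 genes were called, and with the same model DESeq2 called 1088 and limma-voom 264. No called gene changed sign in those 6 leave-one-out fits, which share most of their libraries with the reported fit. In all, 21 genes were called in every leave-one-out fit, and these 21 were also called with the close pair averaged. Averaging the pair is close to leaving out either of its libraries, so it is not a separate check.

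**Figure D1:**
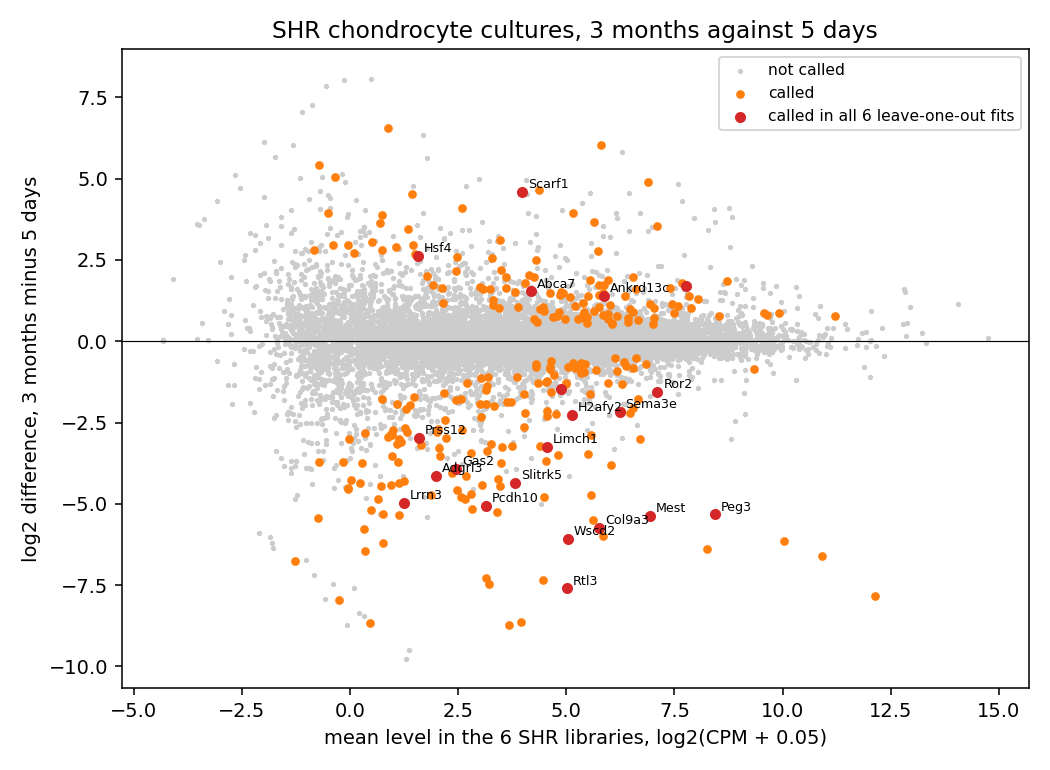
Age difference in SHR for each gene tested, as log2 3 months minus 5 days on the vertical axis, against the mean level over the 6 SHR libraries in log2(CPM + 0.05). Orange points are the called genes and red points the 21 called in every leave-one-out fit, of which 16 lie below the zero line and 5 above it.

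Of the 21 genes called in every leave-one-out fit, 16 fell with age and 5 rose. Those outside the naming rule were named after their values were seen. Sema3e (NCBI gene 296789), a secreted semaphorin that repels growing axons and vessels, had the smallest adjusted p of all genes. Its level, in CPM scaled by edgeR's TMM factors as for all levels from here on, was 108, 98.7 and 162 at 5 days and 21.1, 24.2 and 36.3 at 3 months. Every 3-month library lay below every 5-day library, and the log2 difference was -2.18 (SE 0.15, adjusted p = 0.000755). Slitrk5, a leucine-rich transmembrane protein of synapses, was at 30.3, 25.8 and 24.2 CPM at 5 days and at 1.78, 0.584 and 1.51 at 3 months. The groups did not overlap, with a log2 difference of -4.36 (SE 0.40, adjusted p = 0.00273). Pcdh10, a protocadherin, was at 6.28, 7.54 and 37.8 CPM at 5 days and under 1 CPM in every 3-month library (log2 difference -5.05, SE 0.54, adjusted p = 0.00471). Lrrn3, a leucine-rich neuronal membrane protein, fell by 4.97 on the log2 scale, and Adgrl3, the adhesion receptor latrophilin 3, fell by 4.14. Prss12, the secreted protease neurotrypsin, fell by 2.98.

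H2afy2, another of the 16 and the gene of the histone variant macroH2A2, was at 55.8, 50.8 and 67.2 CPM at 5 days and at 14.7, 10.9 and 9.57 at 3 months. All 3 libraries at 3 months were lower, with a log2 difference of -2.28 (SE 0.22, adjusted p = 0.00273). Gas2, a cytoskeletal protein first found in growth-arrested fibroblasts, was at 13.2, 10.7 and 6.70 CPM at 5 days and below 1 CPM in all 3 libraries at 3 months (log2 difference -3.92, SE 0.38). Limch1, which binds non-muscle myosin, fell by 3.24 on the log2 scale. Wscd2 was at 37.9, 35.7 and 119 CPM at 5 days and at 0.262, 0.351 and 3.53 at 3 months, a log2 difference of -6.09 (SE 0.68, adjusted p = 0.00555), and of -6.71 without replicate 3 of the 3-month group. RGD1560248 fell by 1.47 on the log2 scale. The remaining 5 of the 16 were Col9a3, Ror2, Peg3, Mest and Rtl3, which are described below. Rtl3 is not a member of the imprinted list beside which it is given.

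Among the 5 genes that rose in every leave-one-out fit, Scarf1 had the largest log2 difference. Scarf1, an endocytic scavenger receptor, was at 0.838, 0.713 and 2.39 CPM at 5 days and at 18.5, 30.3 and 41.1 at 3 months, with no overlap (log2 difference 4.60, SE 0.52, adjusted p = 0.00591). Hsf4, a heat shock transcription factor, was at 0.628, 0.764 and 0.957 CPM at 5 days and at 4.30, 3.45 and 7.33 at 3 months (log2 difference 2.62, SE 0.26, adjusted p = 0.00273). Both genes were several-fold higher in each 3-month library than in any 5-day library. Abca7, a transporter that moves lipids across membranes, was at 6.34, 6.72 and 16.1 CPM at 5 days and at 18.7, 23.1 and 38.2 at 3 months (log2 difference 1.53, SE 0.15). Ankrd13c rose by 1.38 and LOC100911730 by 1.69 on the log2 scale, both without overlap of the groups.

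Of 16 tested members of the imprinted growth network, 7 fell (1.19% over all genes tested), 0 rose (0.873%) and 13 had a negative difference. The median log2 difference was -2.56, against -0.00445 over all genes tested. The network had been noted in earlier results of these data, so its choice is not independent of them. To show the start regions of the members described, 4 promoter windows from RefSeq (GRCr8) are printed here 5′ to 3′ on each gene's strand, from 250 bases before the gene's start to 50 after it. Capitals mark TGCCGC on either strand (GCGGCA on the other), the hexamer that the imprint-protecting factor ZFP57 binds when it is methylated.
Plagl1, chr1:9297214-9297513, plus strand: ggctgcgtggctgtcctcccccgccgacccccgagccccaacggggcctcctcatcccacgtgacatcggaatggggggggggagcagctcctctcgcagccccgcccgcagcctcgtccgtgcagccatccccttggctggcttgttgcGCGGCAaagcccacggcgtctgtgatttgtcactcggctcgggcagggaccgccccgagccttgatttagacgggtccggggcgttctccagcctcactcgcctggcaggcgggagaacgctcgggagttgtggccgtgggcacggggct
Peg10, chr4:33808776-33809075, plus strand: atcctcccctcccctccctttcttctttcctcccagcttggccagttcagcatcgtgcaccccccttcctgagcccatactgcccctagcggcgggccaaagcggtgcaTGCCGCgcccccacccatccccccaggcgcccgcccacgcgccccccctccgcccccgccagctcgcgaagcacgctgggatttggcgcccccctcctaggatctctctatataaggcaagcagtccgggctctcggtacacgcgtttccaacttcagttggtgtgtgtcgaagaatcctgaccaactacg
Igf2, chr1:207250426-207250725, minus strand: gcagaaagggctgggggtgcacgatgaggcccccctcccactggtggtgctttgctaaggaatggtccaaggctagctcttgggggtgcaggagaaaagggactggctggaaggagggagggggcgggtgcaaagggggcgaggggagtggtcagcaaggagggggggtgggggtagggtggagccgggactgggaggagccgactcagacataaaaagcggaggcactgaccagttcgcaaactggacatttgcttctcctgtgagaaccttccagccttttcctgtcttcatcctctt
Peg3, chr1:76130744-76131043, plus strand: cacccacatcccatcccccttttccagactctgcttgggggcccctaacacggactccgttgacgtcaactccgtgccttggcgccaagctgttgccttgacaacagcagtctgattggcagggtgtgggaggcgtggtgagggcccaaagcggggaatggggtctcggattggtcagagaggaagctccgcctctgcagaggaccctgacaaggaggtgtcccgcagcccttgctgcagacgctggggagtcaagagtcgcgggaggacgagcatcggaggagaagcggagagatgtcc
Among the 7 called members, 3 held the hexamer in this window (Plagl1, Grb10 and Peg10), against 12.2% of 27457 rat promoters of the same length. The windows of Igf2, Peg3, Mest and Asb4 held no match. The hexamer contains a CpG (C followed by G). The windows with a match held 22 to 44 CpG, and those without held 7 to 18. Enrichment of the hexamer was not tested.

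Peg3 (NCBI gene 103691034), a zinc-finger regulator expressed from the paternal copy, was at 333, 303 and 1395 CPM at 5 days and at 13.2, 8.12 and 22.1 at 3 months. No 3-month library came near the lowest 5-day library, and the log2 difference was -5.33 (SE 0.49, adjusted p = 0.00273). Peg3 was called under every alternative run. Mest, a paternally expressed member of the alpha/beta hydrolase family, was at 102, 107 and 508 CPM at 5 days and at 4.35, 1.34 and 9.68 at 3 months. Its groups did not overlap (log2 difference -5.38, SE 0.71, adjusted p = 0.0135). Rtl3, which is not in the list and is a gene derived from a retrotransposon Gag sequence, fell steeply. It was at 11.0, 11.1 and 172 CPM at 5 days and at 0.0524, 0.117 and 0.504 at 3 months (log2 difference -7.60, SE 0.85, adjusted p = 0.00555), and without replicate 3 of the 5-day group the log2 difference was -6.15.

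Igf2, the fetal insulin-like growth factor, was at 212, 177 and 5811 CPM at 5 days and at 6.66, 0.409 and 63.3 at 3 months. Every 3-month library was lower, and the libraries of each age differed widely, with the batch 2 library highest at both ages. The log2 difference was -6.14 (SE 1.02, adjusted p = 0.0232). Plagl1, a zinc-finger factor that activates Igf2, was at 44.7, 39.3 and 257 CPM at 5 days and at 0.944, 0.0584 and 4.81 at 3 months (log2 difference -5.98, SE 0.84, adjusted p = 0.0156). At 3 months replicate 2 was lowest and replicate 3 highest for Plagl1 and Igf2, and also for Peg3, Mest and Peg10. A link between these genes was not tested. Peg10, another retrotransposon-derived gene, was at 24.5, 25.3 and 66.4 CPM at 5 days and at 4.98, 4.79 and 14.9 at 3 months (log2 difference -2.29, SE 0.35, adjusted p = 0.0187). Asb4, a ubiquitin ligase adaptor, fell by 4.80 on the log2 scale (adjusted p = 0.0413). Grb10, an adaptor that restrains insulin and IGF1 receptor signalling, was named after its values were seen. It was at 728, 736 and 1030 CPM at 5 days and at 343, 501 and 517 at 3 months, without overlap (log2 difference -0.86, SE 0.18, adjusted p = 0.0416).

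These 5 calls were less stable than those of Peg3 and Mest. Igf2, Peg10, Asb4 and Grb10 were called in only 1 leave-one-out fit, the one without replicate 2 of the 3-month group. In the other 5 fits the adjusted p was 0.0683 to 0.0796 for Igf2, 0.0603 to 0.0762 for Peg10, 0.0841 to 0.15 for Asb4 and 0.135 to 0.152 for Grb10. Plagl1 was called without replicate 2 or without replicate 3 of the 3-month group, and had an adjusted p of 0.0526 to 0.0599 without any of the other 4 libraries. Without replicate 3 of the 5-day group the log2 difference of Igf2 was -5.09, and that of Asb4 was -4.18 without replicate 2 and -5.68 without replicate 3 of the 3-month group. In batch 2, 7 of the 16 members were higher and 0 were lower, against 22.9% and 22.3% of all genes tested. The list's median stayed between -2.96 and -2.26 in the 6 fits, while its calls of lower genes ranged from 2 to 7. Zim1, a zinc-finger gene beside Peg3, fell by 7.46 on the log2 scale (SE 1.01, adjusted p = 0.0142), and without replicate 1 of the 3-month group its adjusted p was 0.0526. Its log2 difference was -6.70 without replicate 3 of the 5-day group and -8.69 without replicate 3 of the 3-month group.

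Members of the list that were not called split in direction. Dlk1, a paternally expressed inhibitor of differentiation, was at 3.35, 3.26 and 23.1 CPM at 5 days and at 1.05, 0.117 and 0.448 at 3 months, with an adjusted p of 0.113. Cdkn1c, a maternally expressed brake on the cell cycle, was at 6.49, 6.47 and 5.8 CPM at 5 days and at 0.839, 0.117 and 1.68 at 3 months, with an adjusted p of 0.119. In both genes the ages did not overlap. Gnas, Igf2r and Sgce had log2 differences of 0.04, -0.12 and 0.17. Dcn, the proteoglycan decorin, had a log2 difference of 5.83 (SE 1.81, adjusted p = 0.141), but its 3-month libraries were at 370, 0.292 and 92.4 CPM, so that the ages overlapped.

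**Figure D2:**
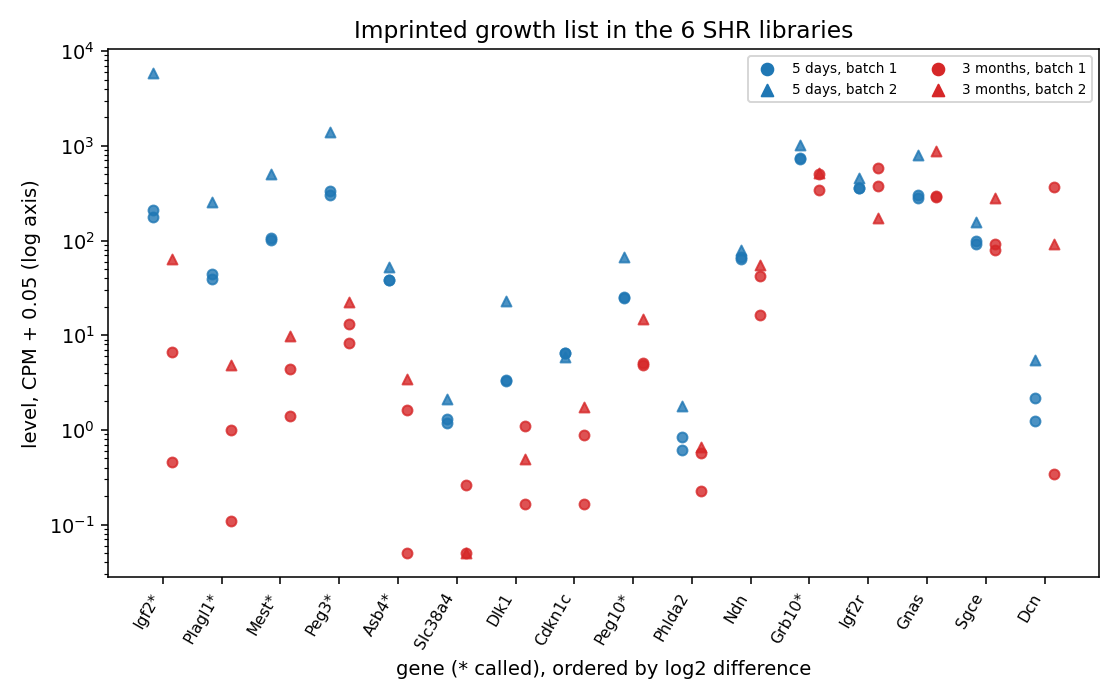
Level of each tested member of the imprinted growth list in the 6 SHR libraries, in CPM + 0.05 on a log axis, with 5 days in blue, 3 months in red, circles for batch 1 and triangles for batch 2. For the 7 called members, marked with an asterisk, all 3 red points lie below all 3 blue points.

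In the growth hormone and IGF axis, a ligand and a protease fell, while the receptor genes did not pass the test. Of 17 tested genes of growth hormone and IGF signalling, 2 were lower (Igf2 and Pappa2) and 0 were higher. Over all genes tested, 1.19% were lower and 0.873% higher. The median log2 difference of the list was -1.12. Pappa2, a protease that frees IGFs from their binding proteins, was at 12.3, 13.0 and 15.4 CPM at 5 days and at 0.472, 0.643 and 0.112 at 3 months. The ages did not overlap (log2 difference -5.16, SE 0.78, adjusted p = 0.0185). It was called in the fit without replicate 2 of the 3-month group, and its adjusted p was 0.0582 to 0.0688 without any other library. The receptors Igf1r and Ghr had log2 differences of 0.36 (SE 0.23, adjusted p = 0.46) and -0.01 (SE 0.33, adjusted p = 0.995). Igf1 ranged from 10.7 to 115 CPM at 5 days and from 5.02 to 36.1 at 3 months and did not pass the test (adjusted p = 0.383). In a list of 11 tested genes of the fetal growth programme, 1 was lower (1.19% over all genes) and 0 were higher (0.873%). The list's median was -0.86. The lower gene was Igf2bp1, an RNA-binding protein that stabilises fetal transcripts. It was at 10.5, 10.3 and 10.7 CPM at 5 days and at 0.891, 0.526 and 0 at 3 months, a log2 difference of -4.57 (SE 0.68, adjusted p = 0.0185). Without any 1 of the 5-day libraries its adjusted p was 0.0568 to 0.0683, and its log2 difference was -5.33 without replicate 1 and -3.96 without replicate 3 of the 3-month group. Igf2bp3 had 3-month levels of 3.04, 25.4 and 0.616 CPM, so that replicate 2 stayed within the 5-day range of 23.0 to 29.0. Hmga2, a chromatin protein of growing tissue, had a log2 difference of -1.34 (SE 0.43, adjusted p = 0.156).

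Collagen and matrix genes of cartilage were among the genes that fell. Of 20 tested members of the cartilage list, 5 were lower (1.19% over all genes), 1 was higher (0.873% over all genes), 19 had a negative difference and the median log2 difference was -1.78. With no batch term 0 of the 20 were called, and in batch 1 alone 1 was. Col9a3, a chain of type IX collagen, was at 2.09, 2.75 and 316 CPM at 5 days and at 0.0524, 0.117 and 4.76 at 3 months. Within each batch the 3-month libraries were far lower, although the batch 2 library at 3 months exceeded the batch 1 libraries at 5 days. With the batch as a term the log2 difference was -5.75 (SE 0.51, adjusted p = 0.00273). Col2a1, which encodes type II collagen, had levels of 621, 674 and 24551 CPM at 5 days. At 3 months it was at 0.577 and 0.175 CPM in batch 1 and at 1346 in batch 2. The 2 batch 1 cultures at 3 months, although labelled chondrocytes, were therefore almost without transcripts of this defining gene, and the ages overlapped across batches. The log2 difference was -7.84 (SE 1.64, adjusted p = 0.0458). Col9a1 followed the same pattern, at 52.8, 51.7 and 1569 CPM against 0.0524, 0 and 149 (log2 difference -6.37, SE 1.15, adjusted p = 0.0316).

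Cilp2, a cartilage intermediate layer protein, and Matn3, a matrilin that links collagen fibrils, were also lower. The log2 difference was -3.17 for Cilp2 and -3.76 for Matn3 (adjusted p = 0.0236 and 0.0468), and in both the ages did not overlap. Acan, which encodes aggrecan, was at 319, 309 and 2453 CPM at 5 days and at 6.08, 187 and 63.3 at 3 months. All 3 libraries at 3 months were lower, but replicate 2 was far above the other two, and Acan did not pass the test (log2 difference -2.23, SE 1.36, adjusted p = 0.434). Sox9 was at 17.9, 15.1 and 180 CPM at 5 days and at 3.72, 9.76 and 28.5 at 3 months (adjusted p = 0.0997), and Comp, an oligomeric matrix protein, had an adjusted p of 0.165. Prg4, the lubricant lubricin of the joint surface, was the called gene of this list that rose. It was at 0.733, 0.458 and 1.38 CPM at 5 days and at 24.8, 4.21 and 301 at 3 months, without overlap (log2 difference 6.04, SE 1.13, adjusted p = 0.0332).

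Most of these cartilage calls rested on the choice of libraries. Col2a1 was called in the fit without replicate 3 of the 3-month group, and its adjusted p was 0.0609 to 0.172 without any other library. Prg4, Cilp2 and Matn3 were called without replicate 2 of the 3-month group, and in the other 5 fits had adjusted p-values of 0.0796 to 0.15, 0.0526 to 0.0922 and 0.102 to 0.157. Col9a1 was not called without replicate 1 or 2 of the 5-day group or replicate 1 of the 3-month group, at 0.0976 to 0.114. The cartilage list also moved with the batch, since 16 of its 20 members were higher in batch 2 and 0 were lower, against 22.9% and 22.3% of all genes tested. Without replicate 3 of the 5-day group the list's median was -1.17. Several sizes moved by over 1.5-fold when a library was left out. Col9a3 had a log2 difference of -4.83 without replicate 3 of the 3-month group. Col2a1 ranged from -10.30 without replicate 3 of that group to -6.98 without replicate 2, and was at -7.12 without replicate 1 and at -8.88 without replicate 3 of the 5-day group. Col9a1 was at -10.15 without replicate 3 of the 3-month group and at -7.63 without replicate 3 of the 5-day group. Matn3 was at -2.79 without replicate 3 of the 5-day group and at -4.39 and -2.90 without replicates 2 and 3 of the 3-month group. In the same order Prg4 was at 5.26, 6.65 and 4.88. Col1a1, the type I collagen of fibrous tissue, was at 19532, 22385 and 40725 CPM at 5 days and at 21554, 32280 and 27770 at 3 months. Its ages overlapped, and it did not pass the test (log2 difference 0.11, SE 0.34, adjusted p = 0.895). Col10a1, the marker of hypertrophic chondrocytes, did not exceed 1.32 CPM per total count in any SHR library and was not tested.

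**Figure D3:**
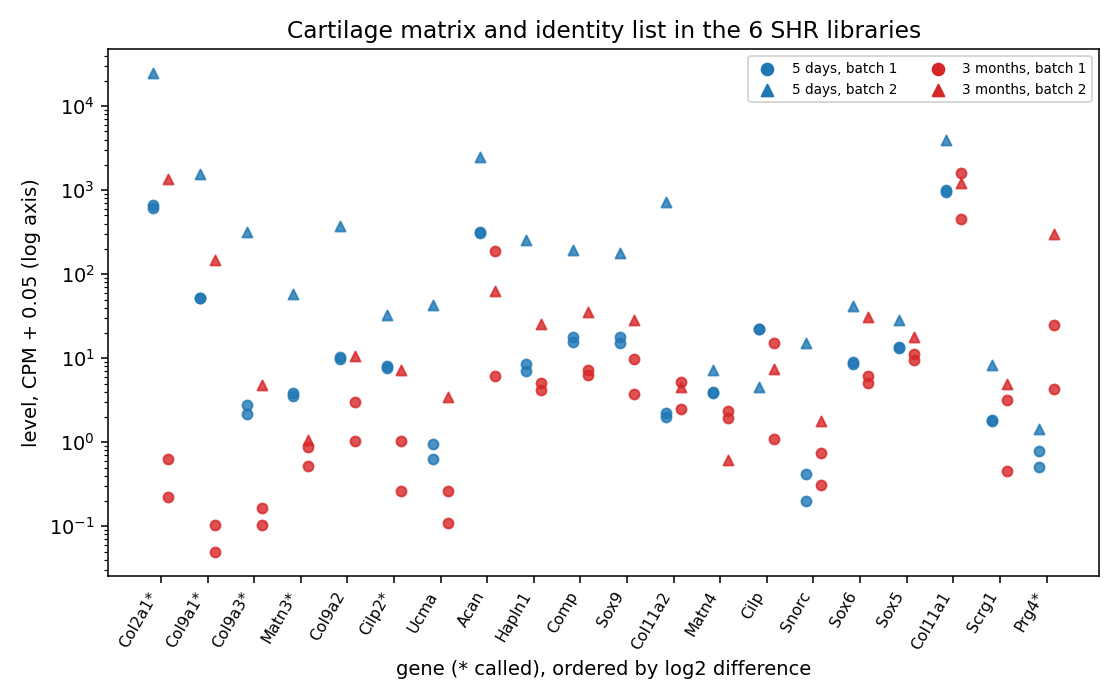
Level of each tested member of the cartilage matrix and identity list in the 6 SHR libraries, in CPM + 0.05 on a log axis, with 5 days in blue, 3 months in red, circles for batch 1 and triangles for batch 2. The batch 2 triangles lie above the circles of the same age for most genes, and Prg4, at the far right, is the called gene with its 3-month points above its 5-day points.

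Genes of skeletal growth signalling changed in small numbers. Beside each count stand 1.19% lower and 0.873% higher over all genes. In the Wnt list of 28 tested genes, 2 were lower and 0 were higher. Ror2, the receptor tyrosine kinase that binds Wnt5a in growing cartilage, was at 157, 160 and 304 CPM at 5 days and at 64.3, 49.8 and 92.2 at 3 months. The ages did not overlap, the log2 difference was -1.55 (SE 0.14, adjusted p = 0.00273), and Ror2 was called in every leave-one-out fit. Frzb, a secreted Wnt antagonist of articular cartilage, was at 83.4, 87.5 and 79.1 CPM at 5 days and at 8.76, 2.4 and 12.3 at 3 months (log2 difference -3.46, SE 0.63, adjusted p = 0.0323). Among 17 FGF genes, Fgfr3, the receptor that restrains growth plate chondrocytes, was the called member. It was at 80.4, 77.6 and 225 CPM at 5 days and at 12.8, 32.8 and 28.5 at 3 months (log2 difference -2.15, SE 0.40, adjusted p = 0.0332). Of 9 genes of hedgehog and PTHrP signalling all had negative differences. Gli2, the main activating transcription factor of the pathway, fell by 0.81 on the log2 scale (SE 0.15, adjusted p = 0.0332). It was at 26.4, 23.0 and 78.2 CPM at 5 days and at 14.3, 15.7 and 39.5 at 3 months. Its ages overlapped across batches, but it was lower within each.

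The BMP list of 26 tested genes held changes in both directions. Bmp6, a BMP ligand, was at 4.77, 5.35 and 3.95 CPM at 5 days and at 25.3, 15.3 and 62.3 at 3 months, without overlap (log2 difference 2.50, SE 0.53, adjusted p = 0.0479). Bmp5, another ligand, had 175 counts over the 5-day libraries and 2 over the 3-month libraries, a ratio of 85.3 (95% counting interval 23.3 to 710) with an adjusted p of 0.0404. Nog, which encodes the BMP antagonist noggin, was at 7.91, 7.54 and 26.1 CPM at 5 days and at 1.36, 2.45 and 7.73 at 3 months. It overlapped across batches but was lower within each, and fell by 1.94 on the log2 scale (SE 0.39, adjusted p = 0.0394). Of 35 limb and positional transcription factors, 1 was higher (Irx3) and 1 was lower (Shox2), beside 0.873% and 1.19% over all genes, with log2 differences of 2.04 (SE 0.30, adjusted p = 0.0185) and -1.29 (SE 0.21, adjusted p = 0.0223). Irx3 was at 7.54, 5.81 and 6.88 CPM at 5 days and at 33.2, 18.7 and 32.4 at 3 months. Shox2, which supports growth of the proximal limb, was at 33.3, 31.7 and 70.7 CPM against 14.1, 12.5 and 29.0, and the ages did not overlap for either gene.

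Apart from Ror2, these signalling calls depended on single libraries. Frzb, Fgfr3, Gli2, Bmp6, Nog and Shox2 were called without replicate 2 of the 3-month group and in no other leave-one-out fit. Their adjusted p-values in the other 5 fits ran from 0.0711 for Shox2 to 0.154 for Bmp6. Irx3 was called without replicate 2 or 3 of the 3-month group, and had 0.0526 to 0.0815 otherwise. Fgfr3 had a log2 difference of -2.77 without replicate 2 of the 3-month group. Bmp5 was called in 0 of the 6 fits, with adjusted p-values of 0.0674 to 0.151. Its fitted log2 difference was -6.20, and -8.76 without replicate 3 of the 3-month group.

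Eln, which encodes elastin, was among the most abundant genes that fell. It was at 3208, 3129 and 5130 CPM at 5 days and at 17.4, 18.9 and 92.9 at 3 months. The 2 ages were far apart in both batches (log2 difference -6.59, SE 1.18, adjusted p = 0.031). Without replicate 3 of the 3-month group Eln was called with a log2 difference of -7.91, and without any other library its adjusted p was 0.051 to 0.113. It was the called member among 19 genes of elastic fibres and small proteoglycans (1.19% lower over all genes). Their median log2 difference was -0.03. Tnmd, the tendon and ligament marker tenomodulin, had 90 counts over the 5-day libraries and 0 over the 3-month libraries. Its level was at least 29.2-fold lower at 3 months, taking 3 counts over the group as the floor (adjusted p = 0.0185). Tnmd was called without replicate 2 or 3 of the 3-month group, and had 0.0508 to 0.0743 without any of the other 4 libraries.

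In the vasoactive and renin-angiotensin list of 24 tested genes, 1 was lower (1.19% over all genes) and 1 was higher (0.873%). Agtr2, the type 2 angiotensin receptor, which is abundant in fetal connective tissue, was at 34.9, 32.5 and 9.21 CPM at 5 days and at 0, 0 and 0.168 at 3 months. Its summed counts were 1459 and 3, a ratio of 474 (95% counting interval 162 to 2300), with an adjusted p of 0.0201. The fitted log2 difference of Agtr2 was -8.72. It was -7.76, -7.90 and -12.56 without replicates 1, 2 and 3 of the 3-month group. Ece1, the protease that activates endothelin, was at 108, 110 and 143 CPM at 5 days and at 223, 206 and 359 at 3 months (log2 difference 1.08, SE 0.19, adjusted p = 0.0284). Neither gene overlapped between the ages. Piezo1, a stretch-activated channel that chondrocytes use to sense load, was the called member among 21 ion channels and mechanosensors (0.873% higher over all genes). It was at 201, 213 and 416 CPM at 5 days and at 374, 348 and 675 at 3 months, and within each batch the older cultures were higher (log2 difference 0.77, SE 0.12, adjusted p = 0.0185). Agtr2 and Piezo1 were called without replicate 2 or 3 of the 3-month group and Ece1 without replicate 2 alone. In the remaining fits the adjusted p was 0.0609 to 0.0899 for Agtr2, 0.0699 to 0.0943 for Piezo1 and 0.0796 to 0.106 for Ece1.

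Of 29 tested genes of glycolysis and the hypoxia response, 1 was higher (Egln3), 0 were lower and 27 had a positive difference, with a median log2 difference of 0.40. Of 19 genes of collagen processing, 2 were higher (P4ha2 and Plod2) and 0 were lower, and of 18 clock genes 1 was higher (Bhlhe40), against 0.873% higher over all genes. The promoter windows of 2 of these genes are printed from RefSeq (GRCr8), with capitals marking ACGTG on either strand (CACGT on the other), the core shared by hypoxia response elements and the E-boxes bound by clock factors.
Bhlhe40, chr4:143174200-143174499, plus strand: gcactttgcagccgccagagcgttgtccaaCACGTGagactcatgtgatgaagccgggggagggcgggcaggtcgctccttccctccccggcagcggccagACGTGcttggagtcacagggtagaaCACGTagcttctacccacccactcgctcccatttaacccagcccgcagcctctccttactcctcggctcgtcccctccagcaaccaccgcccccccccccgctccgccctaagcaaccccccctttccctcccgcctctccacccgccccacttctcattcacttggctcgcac
P4ha2, chr10:38743644-38743943, plus strand: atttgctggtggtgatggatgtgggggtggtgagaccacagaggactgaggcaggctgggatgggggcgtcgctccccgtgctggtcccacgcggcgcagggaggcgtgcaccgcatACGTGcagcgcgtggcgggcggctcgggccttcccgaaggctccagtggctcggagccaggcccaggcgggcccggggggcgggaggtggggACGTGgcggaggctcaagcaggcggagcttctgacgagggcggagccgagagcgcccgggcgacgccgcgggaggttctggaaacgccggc
Bhlhe40, with 4 matches counted over both strands, has its first 2 overlapping in CACGTG, and P4ha2 has 2. Of 5 genes looked up, 4 had a window, and Ero1a had none. These genes were picked from the called genes of these data, so the share among them describes the choice. ACGTG stood in 3 of the 4 windows (Bhlhe40, P4ha2 and Plod2, but not Egln3), against 19.7% of 27457 rat promoters. It also contains a CpG, and the windows with a match held 20 to 40 CpG, against 1 for Egln3. Enrichment was not tested.

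Egln3, a prolyl hydroxylase that marks hypoxia-inducible factors for breakdown and is itself induced by them, was at 2.51, 1.94 and 0.478 CPM at 5 days. At 3 months it was at 68.9, 11.3 and 38.8, so that the ages did not overlap (log2 difference 4.66, SE 0.83, adjusted p = 0.031). P4ha2, a subunit of the enzyme that hydroxylates collagen prolines, was at 131, 131 and 116 CPM at 5 days and at 323, 245 and 415 at 3 months (log2 difference 1.38, SE 0.26, adjusted p = 0.0332). Plod2, which hydroxylates collagen lysines for cross-linking, had a log2 difference of 0.87 (SE 0.18, adjusted p = 0.0435). Bhlhe40, a repressor in the circadian clock, was at 35.9, 30.4 and 78.1 CPM at 5 days and at 107, 99.9 and 232 at 3 months (log2 difference 1.61, SE 0.27, adjusted p = 0.0254). Every 3-month library exceeded every 5-day library for Egln3, P4ha2, Plod2 and Bhlhe40. Other hypoxia genes did not pass the test: Hif1a had a log2 difference of 0.35 (adjusted p = 0.491), Vegfa 0.69 (adjusted p = 0.281) and Ldha 0.39 (adjusted p = 0.583). Sod3, the extracellular superoxide dismutase, was the called member of 21 antioxidant genes (0.873% higher over all genes). It was at 151, 156 and 162 CPM at 5 days and at 501, 278 and 1291 at 3 months (log2 difference 1.86, SE 0.39, adjusted p = 0.0456).

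The calls for Egln3, P4ha2, Bhlhe40 and Sod3 held in the leave-one-out fit without replicate 2 of the 3-month group. In the other 5 fits the adjusted p was 0.0796 to 0.124 for Egln3, 0.0926 to 0.127 for P4ha2, 0.0699 to 0.114 for Bhlhe40 and 0.125 to 0.152 for Sod3. Egln3 had a log2 difference of 4.01 without replicate 1 of the 3-month group. Plod2 was called in 0 of the 6, with adjusted p-values of 0.0742 to 0.171.

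Among the genes with the steepest rises outside the lists, Prdm8, a transcriptional repressor of the PR-domain family, was at 4.29, 4.53 and 3.95 CPM at 5 days and at 75.6, 89.9 and 36.7 at 3 months. All 3 libraries at 3 months were several-fold higher (log2 difference 3.95, SE 0.51, adjusted p = 0.0115). Ntn1, the guidance protein netrin 1, was at 8.59, 8.81 and 3.17 CPM at 5 days and at 125, 34.6 and 118 at 3 months (log2 difference 3.68, SE 0.74, adjusted p = 0.0412). Rnd1, a GTPase that loosens the actin cytoskeleton, was at 17.7, 16.3 and 7.77 CPM against 94.7, 55.9 and 124 (log2 difference 2.78, SE 0.41, adjusted p = 0.0185). Icoslg, a ligand that costimulates T cells, rose by 2.57 on the log2 scale, Il17re, a receptor of the IL-17 family, by 2.59, and Pla1a, a phospholipase, by 3.11. Stxbp5l rose by 4.11 and Syndig1, a synaptic membrane protein, by 4.53, and Esm1, the proteoglycan endocan, by 3.54. The ages did not overlap for these 9 genes. Without any 1 of the 5-day libraries Prdm8 had an adjusted p of 0.05 to 0.0659. Ntn1 and Pla1a were called without replicate 2 of the 3-month group, with 0.107 to 0.15 and 0.113 to 0.15 otherwise. Stxbp5l was called without replicate 3 of that group, with 0.0578 to 0.167 otherwise. Rnd1, Il17re and Syndig1 were called without replicate 2 or 3 of that group, with 0.0559 to 0.0743, 0.0781 to 0.115 and 0.0683 to 0.187 otherwise. Icoslg lost its call without replicate 1 or 2 of the 5-day group, at 0.0623 to 0.0683. Esm1 was called in 0 of the 6 fits, with 0.0517 to 0.161, and had a log2 difference of 2.93 without replicate 3 of the 5-day group. Stxbp5l was at 3.41 and 4.73 without replicates 2 and 3 of the 3-month group, and Syndig1 at 3.08 without replicate 3 of that group and at 5.37 without replicate 1 of the 5-day group.

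Other steep falls concerned genes with few reads at 3 months. Nrk, an X-linked kinase known from fetal tissue and placenta, was at 43.0, 41.0 and 204 CPM at 5 days and at 1.31, 1.81 and 1.40 at 3 months. The ages did not overlap (log2 difference -5.51, SE 0.73, adjusted p = 0.0136), and without replicate 1 of the 3-month group its adjusted p was 0.0526. Ppp1r1b, the phosphatase inhibitor DARPP-32, was at 2.51, 3.41 and 46.3 CPM against 0.105, 0 and 0.112 (log2 difference -7.29, SE 0.92, adjusted p = 0.0104), with 0.05 to 0.0527 without replicate 3 of either age. Krt17, a keratin, fell by 7.34 on the log2 scale, but its 5-day libraries were at 1.31, 0.917 and 129 CPM, so that the batch 2 library carried most of its level. It was called without replicate 2 of the 3-month group, with 0.0713 to 0.262 otherwise. Hmgn1, a nucleosome-binding protein, had a log2 difference of -8.62 (adjusted p = 0.0435). Hmgn1 has near-identical copies in the genome between which reads can be split, so its value is uncertain, and it was called in 0 of the 6 fits (0.0765 to 0.16), with log2 differences of -9.21 and -7.90 without replicates 2 and 3 of the 5-day group. Nrk had a log2 difference of -4.82 without replicate 3 of the 3-month group. Leaving out replicate 3 of the 5-day group, replicate 1 of the 3-month group or replicate 3 of the 3-month group gave -4.92, -8.12 and -4.87 for Krt17, and -6.62, -8.44 and -5.71 for Ppp1r1b.

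Inflammatory genes mostly had positive differences, of which 1 passed the test. In the cytokine and NF-kB list of 29 tested genes, 1 was higher (0.873% over all genes) and 0 were lower (1.19%). In that list 26 had a positive difference, and the median log2 difference was 1.46. Ccl7, a chemokine that attracts monocytes, was the called member. It was at 17.0, 14.6 and 0.120 CPM at 5 days and at 564, 57.1 and 62.9 at 3 months, without overlap (log2 difference 4.91, SE 0.97, adjusted p = 0.0391), and 0.101 to 0.156 in the 5 fits that kept replicate 2 of the 3-month group. Its log2 difference was 4.14 without replicate 1 and 5.51 without replicate 2 of that group. Il6 was at 6.81, 6.21 and 0.478 CPM at 5 days and at 90.2, 41.1 and 102 at 3 months, with an adjusted p of 0.0547. Ccl2 and Ccl20 had adjusted p-values of 0.0716 and 0.0521. Mmp3, the protease stromelysin 1, was at 18.4, 19.8 and 1.91 CPM at 5 days and at 229, 41.3 and 847 at 3 months (adjusted p = 0.101), and 0 of 27 tested matrix proteases and inhibitors were called. Of 15 complement genes, 13 had positive differences, the median was 1.61, or 1.01 without replicate 3 of the 3-month group, and 0 were called. The macrophage markers were highest in replicate 3 at 3 months, whereas Ccl7 was highest in replicate 1 and Il6 was at similar levels in replicates 1 and 3. The part of macrophages in these values was not tested.

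Lists of general cell functions held no call. All 30 tested cell cycle genes had a negative difference, between -0.76 and -0.18, with a median of -0.44, and 0 passed even an unadjusted p of 0.05. Without replicate 3 of the 5-day group, 13 of the 30 were negative and the median was 0.05. Mki67, the proliferation antigen, was at 67.2, 62.6 and 269 CPM at 5 days and at 81.0, 74.7 and 66.6 at 3 months (adjusted p = 0.597). For oxidative phosphorylation and the unfolded protein response, 0 of 28 and 0 of 20 genes passed an unadjusted p of 0.05, with medians of -0.04 and 0.11. Of 25 genes of cholesterol synthesis, 24 had a negative difference and 0 were called. Of 11 inhibitors of the cell cycle and senescence genes, 0 were called, and Cdkn2a had a log2 difference of 0.23 (SE 0.35, adjusted p = 0.767).

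**Figure D4:**
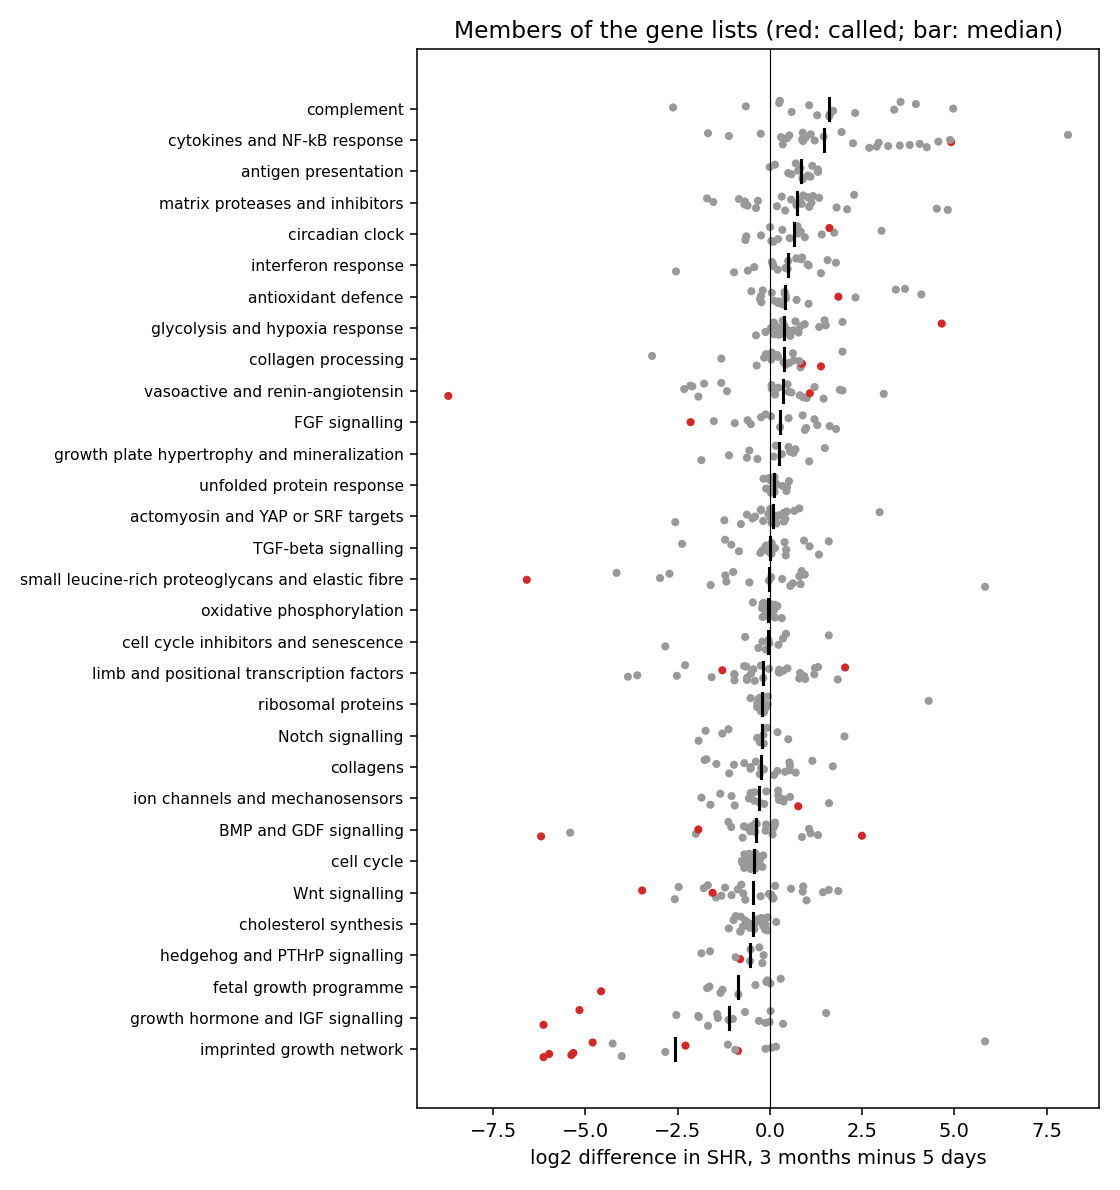
Log2 difference in SHR, 3 months minus 5 days, for every tested member of each pathway list (the cell type marker lists are not drawn), with called genes in red and the list's median as a black bar. Among the lists drawn, the imprinted growth network has the lowest median, -2.56, and the complement list the highest, 1.61.

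The age comparison in WKY gave 501 called genes (3.74%), 229 higher (1.71%) and 272 lower (2.03%). Of the 276 genes called in SHR, 154 were called in WKY in the same direction, which is 55.8% of the SHR calls and 30.7% of the WKY calls, and 0 were called in the opposite direction. These were 63 higher and 91 lower genes. In all, 269 of the 276 had the same sign in WKY. The log2 differences in SHR and WKY were -5.33 and -5.19 for Peg3, -5.38 and -6.04 for Mest, and -5.98 and -5.61 for Plagl1. The imprinted list had 8 lower members in WKY and a median of -2.79. Egln3 rose by 4.66 and 4.35, and Scarf1 by 4.60 and 3.61.

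The difference between the strains' age differences was tested as an interaction. No gene passed it with edgeR (0 of 13397, 0%), while 569 had an unadjusted p under 0.05 and DESeq2 called 34. The smallest adjusted p was 0.0939, for Stk26, Sema3e and Zfp385b. Stk26, a kinase of the STE20 group, fell by 1.88 on the log2 scale in SHR (SE 0.26, adjusted p = 0.0142) and had a log2 difference of 0.95 in WKY (SE 0.25, adjusted p = 0.0706). Its SHR call held without replicate 2 or 3 of the 3-month group, and the adjusted p was 0.0546 to 0.0622 without any of the other 4 SHR libraries. Sema3e had log2 differences of -2.18 in SHR and -0.64 in WKY (adjusted p = 0.000755 and 0.0401). Prg4 had a log2 difference of 6.04 in SHR and 0.51 in WKY, and Ccl7 4.91 and 0.33, and neither passed the interaction test (adjusted p = 0.876 for both). A call in SHR beside none in WKY is therefore not shown to be a difference between the strains. Among WKY 5-day libraries, replicates 2 and 3 carried Y-linked counts (131 and 60.7 CPM per total count) that all SHR libraries lacked (at most 0.944). Without those 2 libraries only replicate 1 of the WKY 5-day group is left, and part of the SHR calls changed. The SHR log2 difference was then -7.74 for Rtl3 and -6.23 for Wscd2, against -7.60 and -6.09 with all libraries.

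**Figure D5:**
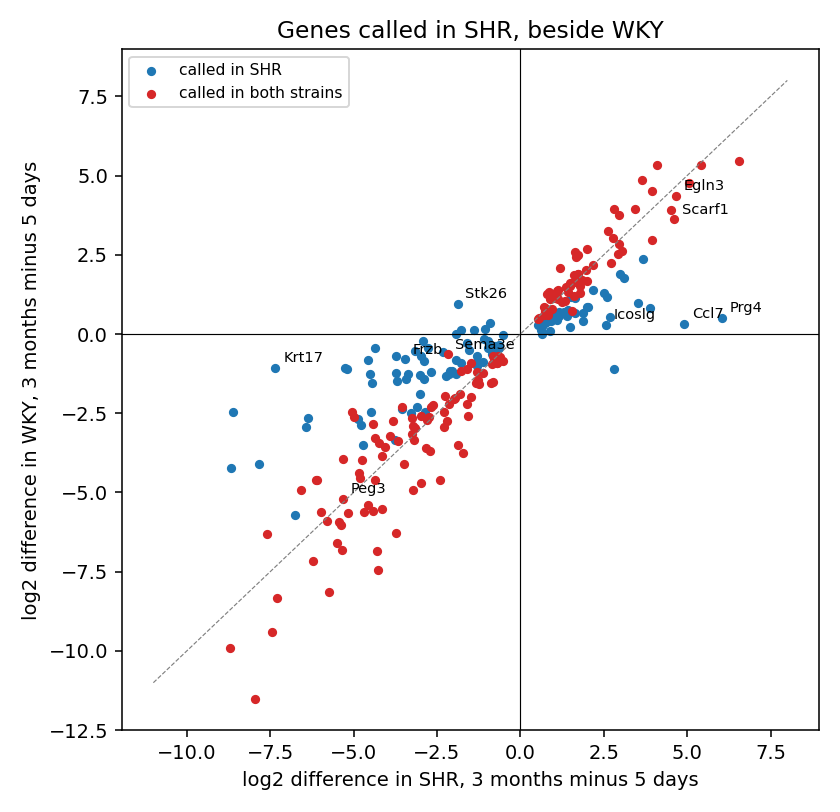
Log2 age difference in WKY against that in SHR, 3 months minus 5 days, for the 276 genes called in SHR, with the 154 called in both strains in red and the line of equal differences dashed. Of the 276 points, 269 have the same sign in both strains.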

How the data were processed

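The deposited table holds expected counts per gene for 12 libraries. The authors' files were made with Bowtie2 2.4.4, RSEM 1.2.28 and the rat assembly Rnor_6.0, per the submitters' processing notes, and 9.17% of the expected counts were not whole and were rounded. The deposited log2 expression tables of each strain, whose scaling is not given in the sources used here, served as an alternative only. Of 16770 gene identifiers, 15776 matched RefSeq, and 12756 had a promoter in its table (GRCr8).

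All 12 libraries (17839101 to 20358123 counts) were fitted with edgeR 4.0.16 in R 4.3.3, with TMM scaling, the filterByExpr low-count filter, robust quasi-likelihood and terms for group and batch. Calls were made at a Benjamini-Hochberg adjusted p under 0.05 over 13397 genes. The SE is the size of the log2 difference divided by the square root of F. Levels are CPM computed from the counts. Alternatives used limma 3.58.1 and DESeq2 1.42.0, other scalings, filters, batch terms and sets of libraries. The fit was tested on simulated data.

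The named genes followed a rule. It took the 15 largest folds each way among called genes whose batches agreed in sign, whose group mean reached 5 CPM at 1 age and whose symbol was not a placeholder. It added up to 6 called genes per list, ranked by adjusted p, and 20 genes whatever their values, such as Col2a1 and Igf2. The members, gene lists and tests were chosen with earlier results of these data known. Within-batch directions used log2(CPM + 0.5). Intervals and floors cover counting error only.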

Additional observations from a re-analysis of the deposited data

How the results depend on the processing

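The main limits were the small number of libraries, the close pair of 5-day SHR libraries and the batch, with 1 library of each group in batch 2. Genes without a call are not shown to be unchanged. The SHR age comparison gave 276 calls and 287 with RLE scaling, 260 with upper-quartile scaling, 258 with no low-count filter and 265 with a filter of at least 1 CPM in 3 libraries. It gave 1088 with DESeq2 (598 higher, 490 lower), 18 with no batch term (4 and 14), 41 in batch 1 alone (11 and 30), 100 with only the 6 SHR libraries in the fit (31 and 69), 150 from the deposited log2 table with limma (44 and 106), and 26 with the close 5-day pair averaged (6 and 20), against 117 and 159 in the reported fit. Leaving out each SHR library in turn gave 27 to 478 calls, the highest without replicate 2 of the 3-month group (258 higher, 220 lower). The calls shared with the reported 276 were 276 for DESeq2, 228 of 264 for limma-voom (92 higher, 172 lower) and 18 without the batch term. The median over all genes moved by less than 0.1 on the log2 scale under each scaling.

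The WKY comparison gave 501 calls, and 1495 with DESeq2, 128 with no batch term, 262 in batch 1 alone, 268 with only the 6 WKY libraries, 254 with the close SHR pair averaged and 110 to 552 when leaving out each of its libraries. The interaction gave 0 calls, and 34 with DESeq2, 1 in batch 1 alone, 0 to 1 when leaving out each library, and 1 without the 2 WKY 5-day libraries with Y-linked counts, an alternative chosen after seeing the data.

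With the replicate number as a block in place of the batch, the SHR comparison gave 157 calls (56 higher, 101 lower), of which 150 were among the 276, and the WKY comparison 336. The numbers did not pair the samples beyond the batch: the correlation of replicate 1 minus replicate 2 between the 2 SHR groups was -0.0456, and between other groups -0.137 to 0.0673.

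Peg3 kept its call under all alternatives run. Among the genes called in every leave-one-out fit, values under all alternatives were drawn up for Peg3, Rtl3, Wscd2, Col9a3, Mest, Scarf1, Hsf4 and Ror2. The rest were not looked up. They are not shown to keep their calls with no batch term, in batch 1 alone, with limma-voom or from the log2 table. Of the 276 calls, 18 were kept with no batch term and 30 in batch 1 alone. Among the genes looked up, Rtl3 had an adjusted p of 0.0896 with limma-voom and 0.109 from the log2 table. Col9a3 had 0.177 in batch 1 alone and 0.266 from the log2 table. In batch 1 alone Mest had 0.0577, Scarf1 0.0699 and Hsf4 0.0568. With no batch term Rtl3 had 0.052, Wscd2 0.169, Col9a3 0.484, Mest 0.0802, Hsf4 0.051 and Ror2 0.155. For uncalled genes the sign changed: Col1a1 had a log2 difference of -0.0182 with no batch term and -0.226 to 0.435 when leaving out each library, Mki67 0.261 in batch 1 alone and -0.7997 to 0.0721 when leaving out each library, and Cdkn2a -0.0759 in batch 1 alone and -0.0453 to 0.375 when leaving out each library. The causes were not tested.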

Other observations

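Counts of called genes in some guidance and adhesion families are given here. The families were picked after values were seen, so their counts, beside 1.19% lower and 0.873% higher over all genes, describe the choice and test nothing. Of 9 non-clustered protocadherins tested, 5 were lower at 3 months (Pcdh7, Pcdh9, Pcdh10, Pcdh11x and Pcdh18), 0 were higher and the median log2 difference was -1.84. Of 10 Eph receptors, which pattern tissues through contact with ephrins, 3 were lower (Epha3, Epha4 and Epha7) with a median of -0.98, while 0 of 7 ephrins were called. Epha4 was at 14, 11.8 and 12.4 CPM at 5 days and at 1.47, 0.993 and 1.06 at 3 months, without overlap (log2 difference -3.42, SE 0.55, adjusted p = 0.0225). Epha7 was at 6.23, 5.86 and 12.5 CPM against 1.36, 0.584 and 1.12 (log2 difference -2.97, SE 0.47, adjusted p = 0.0201). Among 9 genes of the Slit, Robo, netrin and Unc5 families, Slit3 and the netrin receptor Unc5c were lower while Ntn1 was higher. Unc5c was at 24.6, 21.7 and 71.1 CPM at 5 days and at 7.24, 6.49 and 9.18 at 3 months (log2 difference -2.14, SE 0.30, adjusted p = 0.0142). Of 19 semaphorins 2 were lower (Sema3e and Sema4d), and of 11 cadherins with a Cdh symbol 2 were lower (Cdh2 and Cdh10). Of these genes, Sema3e and Pcdh10 were called in every leave-one-out fit, and Unc5c in all but that without replicate 1 of the 5-day group (adjusted p = 0.0599). Epha3, Epha4, Epha7, Slit3, Pcdh11x, Sema4d and Cdh2 were called without replicate 2 of the 3-month group, with 0.0526 to 0.181 in the other 5 fits. Pcdh9 was called without replicate 2 or 3 of the 3-month group and Pcdh7 without replicate 1 or 2 of it, while Pcdh18 and Cdh10 were called in 0 of the 6.

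The values of 4 more called genes known to be imprinted, picked after they were seen, are given here. Imprinted genes outside the list were not counted as a set. Nnat, which encodes neuronatin, was at 143, 149 and 254 CPM at 5 days and at 23.3, 5.67 and 52.9 at 3 months (log2 difference -3.00, SE 0.47, adjusted p = 0.0201). Snurf and Peg12 had log2 differences of -1.61 and -0.79 (adjusted p = 0.0338 and 0.0332). The ages overlapped for Snurf but not for Peg12. Zdbf2 had 39 counts over the 5-day libraries and 0 over the 3-month libraries, at least 12.7-fold lower with 3 counts over the group as the floor. Nnat was not called without replicate 1 or 2 of the 5-day group or replicate 3 of the 3-month group (adjusted p = 0.0654 to 0.0769). Snurf, Peg12 and Zdbf2 were called in 1 leave-one-out fit, without replicate 2 of the 3-month group, and had 0.0753 to 0.132, 0.114 to 0.129 and 0.104 to 0.154 in the others. The 2 genes Ero1a and Stc1, known to respond to low oxygen, rose by 1.38 and 1.98 on the log2 scale (adjusted p = 0.0201 and 0.0479). Ero1a had 0.0711 to 0.1 without any 1 of the 5-day libraries, and Stc1 had 0.124 to 0.19 in the 5 fits that kept replicate 2 of the 3-month group.

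Of the 276 genes called in SHR, 7 had the opposite sign in WKY (Vdr, Bmf, Gprc5c, Sgip1, Plekho2, Stk26 and Fzd5). Vdr, the vitamin D receptor, had log2 differences of -1.05 in SHR and 0.17 in WKY, and Sgip1 2.79 and -1.11. None of the 7 passed the interaction test, with adjusted p-values from 0.0939 for Stk26 to 0.89 for Plekho2.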
